A study of Mus musculus with 3 samples.

Results

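The 36 genes described here make up the DNA replication and S phase programme of the mouse: the replicative helicase and the factors that load it, the enzymes that supply deoxynucleotides, the polymerases, clamp and fork proteins, the factors that rebuild chromatin behind the fork, and the cyclins and E2F factor of S phase entry. They were chosen by name, and all 36 were found among the 28692 genes listed for both libraries. The cells were TEa CD4+ T cells, which carry a transgenic T cell receptor that recognises the I-Eα alloantigen of BALB/c mice. Congenically marked, naïve wild-type TEa cells were transferred into C57BL/6 mice that then received a BALB/c heart, and at day 7 the TEa cells were sorted from the graft and from the spleen of the recipients. Each tissue gave 1 single-cell RNA library (10x Genomics 3' chemistry, which counts each captured transcript once through a unique molecular identifier, UMI). With 1 library per tissue the tissue and the library cannot be told apart, no test between tissues was possible, and all intervals below cover counting error only. The number of recipients behind each library, and whether their cells were pooled, is not given in the sources used here. Another group, Ldha-/- TEa cells from the spleen, was not analysed here.

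A T cell that meets its antigen leaves quiescence, and its G1 cyclin-dependent kinases release E2F transcription factors from the retinoblastoma family of repressors. E2F factors then switch on the genes of DNA synthesis. Before S phase Cdc6 and Cdt1 load the Mcm2-7 ring on replication origins, Cdc45 and the GINS complex turn the ring into an active helicase, and Pcna, loaded by replication factor C, holds the polymerases on the template. In heart transplantation, alloreactive CD4+ T cells are primed and divide in lymphoid organs such as the spleen and then enter the graft.

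Promoters of S phase genes are known for E2F sites, so the E2F words TTTCCCGC, TTTGGCGC, TTTCGCGC and TTTGCCGC were searched on both strands of the RefSeq promoter windows (GRCm38.p6, 250 bases before to 50 after the annotated start). The table held windows for 32 of the 36 genes. Those without an entry were Mcm4, Gins2, Rfc2 and Ccne2. At least 1 E2F word was found in 12 of the 32 (37.5%), and in 704 of the 27025 genes of the table (2.60%). The 12 were Cdc6, Cdt1, Mcm3, Mcm5, Mcm6, Mcm7, Pola1, Pold1, Lig1, Uhrf1, Dnmt1 and Clspn. The other words searched gave smaller contrasts: CCAAT, on either strand, was in 19 of 32 (59.4%) against 41.1% of all genes, and TTTGAA, the core of the element that binds cell cycle repressor complexes, was in 5 of 32 (15.6%) against 20.2%. The 4 genes with an E2F word that had the highest heart over spleen ratio are shown with their words in capitals, 5′ to 3′ on the gene's strand, beside Ung, the gene with the lowest ratio, which held none of the words.
Cdc6 (chr11:98907901-98908200, + strand): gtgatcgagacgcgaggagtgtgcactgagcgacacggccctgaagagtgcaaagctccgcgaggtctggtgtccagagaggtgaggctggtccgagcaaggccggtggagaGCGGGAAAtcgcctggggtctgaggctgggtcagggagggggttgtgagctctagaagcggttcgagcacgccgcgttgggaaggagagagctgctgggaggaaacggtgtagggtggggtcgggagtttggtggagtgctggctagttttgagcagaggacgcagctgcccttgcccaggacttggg
Lig1 (chr7:13278576-13278875, + strand): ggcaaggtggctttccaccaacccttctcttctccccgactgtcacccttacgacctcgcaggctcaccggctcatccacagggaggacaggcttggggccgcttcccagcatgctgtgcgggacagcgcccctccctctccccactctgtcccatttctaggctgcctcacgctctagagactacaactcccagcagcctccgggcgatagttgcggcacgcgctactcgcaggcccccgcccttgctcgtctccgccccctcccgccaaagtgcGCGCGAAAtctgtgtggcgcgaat
Mcm5 (chr8:75109259-75109558, + strand): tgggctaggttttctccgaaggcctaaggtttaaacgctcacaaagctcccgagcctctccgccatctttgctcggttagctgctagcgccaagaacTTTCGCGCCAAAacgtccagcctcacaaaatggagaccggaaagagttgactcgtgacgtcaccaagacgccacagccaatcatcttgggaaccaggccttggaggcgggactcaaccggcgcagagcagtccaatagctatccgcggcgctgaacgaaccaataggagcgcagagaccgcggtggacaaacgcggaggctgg
Clspn (chr4:126556730-126557029, + strand): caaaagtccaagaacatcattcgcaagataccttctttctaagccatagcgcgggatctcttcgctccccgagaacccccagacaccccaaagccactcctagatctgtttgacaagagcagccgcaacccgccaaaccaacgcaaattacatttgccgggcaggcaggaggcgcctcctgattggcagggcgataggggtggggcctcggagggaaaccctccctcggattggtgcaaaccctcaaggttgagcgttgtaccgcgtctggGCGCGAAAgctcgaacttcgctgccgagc
Ung (chr5:114130185-114130484, + strand): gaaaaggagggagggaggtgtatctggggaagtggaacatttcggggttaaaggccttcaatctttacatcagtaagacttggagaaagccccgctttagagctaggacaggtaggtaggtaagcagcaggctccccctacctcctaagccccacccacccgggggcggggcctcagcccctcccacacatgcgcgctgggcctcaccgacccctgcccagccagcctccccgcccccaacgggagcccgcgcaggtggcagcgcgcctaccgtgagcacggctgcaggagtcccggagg
The Cdc6 window held GCGGGAAA at position -138, counted from the start annotated in RefSeq as 0, and the Lig1 and Clspn windows held GCGCGAAA at 26 and 21. In the mm10 annotation used for gene positions Cdc6 starts at chr11:98907801 and Lig1 at chr7:13277283. The Cdc6 and Lig1 windows shown thus lie inside the genes as annotated there. The table has 3 windows for Lig1, of which the one shown is the only one with an E2F word. In the Mcm5 window TTTCGCGC at -153 and GCGCCAAA at -149 overlapped. A word in a window is a description of its letters and not evidence of a bound site.

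After filters, 3984 heart cells and 6568 spleen cells were kept, with 42203172 and 56233997 UMIs in all and medians of 8234.5 and 7988 UMIs per cell. The 10 T cell markers (Cd3e, Trac, Cd4 and others) summed to 13172 CPM (UMIs of a gene scaled to equal totals, counts per 1000000) in heart and 12716 in spleen. Markers of other cells were lower: the 7 erythroid genes were at 19.4 CPM in heart and 212 in spleen, the 6 B cell genes at 44.1 and 177 and the 4 endothelial genes at 29.0 and 63.4, while the 4 cardiomyocyte genes were at 0 in both. Ribosomal protein genes took 29.8% of heart and 35.2% of spleen UMIs. The 2 libraries shared 6 cell barcodes. Barcodes of 10 to 100 UMIs, taken as a measure of free RNA, held the 36 genes at 1801 CPM in heart and 895 in spleen, close to the level in the kept cells of the same library. The part of the free RNA and of the other cells' markers in the results was not tested.

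As a set the replication genes were more abundant in the graft. They summed to 71967 UMIs in heart and 43957 in spleen, which is 1705 and 782 CPM, or 0.171% and 0.0782% of all UMIs. Of the 36 genes, 35 were higher in heart, 22 of them at least 2-fold, and 1 (Ung) was lower. Among all genes with any UMI the same 2-fold was passed by 5.69%, and 43.7% were higher in heart at all. Ratios are log2 of (CPM heart + 1) over (CPM spleen + 1), which understates the difference of low genes. The median over the 36 was 1.20, and over all genes with a UMI it was -0.03. A floor of 10 CPM was reached by 23 of the 36 in both libraries, by 8 in heart alone and by none in spleen alone. The 5 under it in both were Mcm10, Cdc6 (422 UMIs in heart, at 9.999 CPM just below), Pold1, Ung and E2f8. Of the 31 past the floor, 20 were at least 2-fold higher in heart (9.08% of all genes past it) and 0 at least 2-fold lower (8.5% of all genes). Since 8 passed through the library where they were high, these counts are no separate support.

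The counts of genes past 2-fold were lower where cells with many UMIs, which weigh most in a sum over cells, weighed less. Heart cells of the cluster led by cell cycle genes, described below, had a median of 19544 UMIs. Depth and cycling thus cannot be told apart here. Where each cell was thinned to 1000 UMIs the count was 10 of 26 past the floor (9.23% of all genes), and the median ratio was 0.84. Where every cell had equal weight, as the mean of per-cell CPM, it was 10 of 27 (8.97% of all genes) and the median 0.90. Without cells over 3 times their library's median UMI count it was 9 of 29 (8.69% of all genes), with a median of 0.83. Without the cluster led by cell cycle genes it was 2 of 20, near the 8.91% of all genes. The median was then -0.033, and -0.159 over all genes. Cell cycle genes shaped that cluster, which held 72.6% of the heart and 30.3% of the spleen UMIs of the 36 genes. A smaller heart excess without it was thus largely fixed in advance, and no conclusion is drawn from it. With mitochondrial, ribosomal protein and Malat1 counts left out of the totals, the median of all genes past the floor moved from -0.11 to -0.32 and heart-higher calls from 51.6% to 33.5% of all calls past 2-fold. The replication genes stood 1.36 above the median of all genes before and 1.39 above it after.

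**Figure D1:**
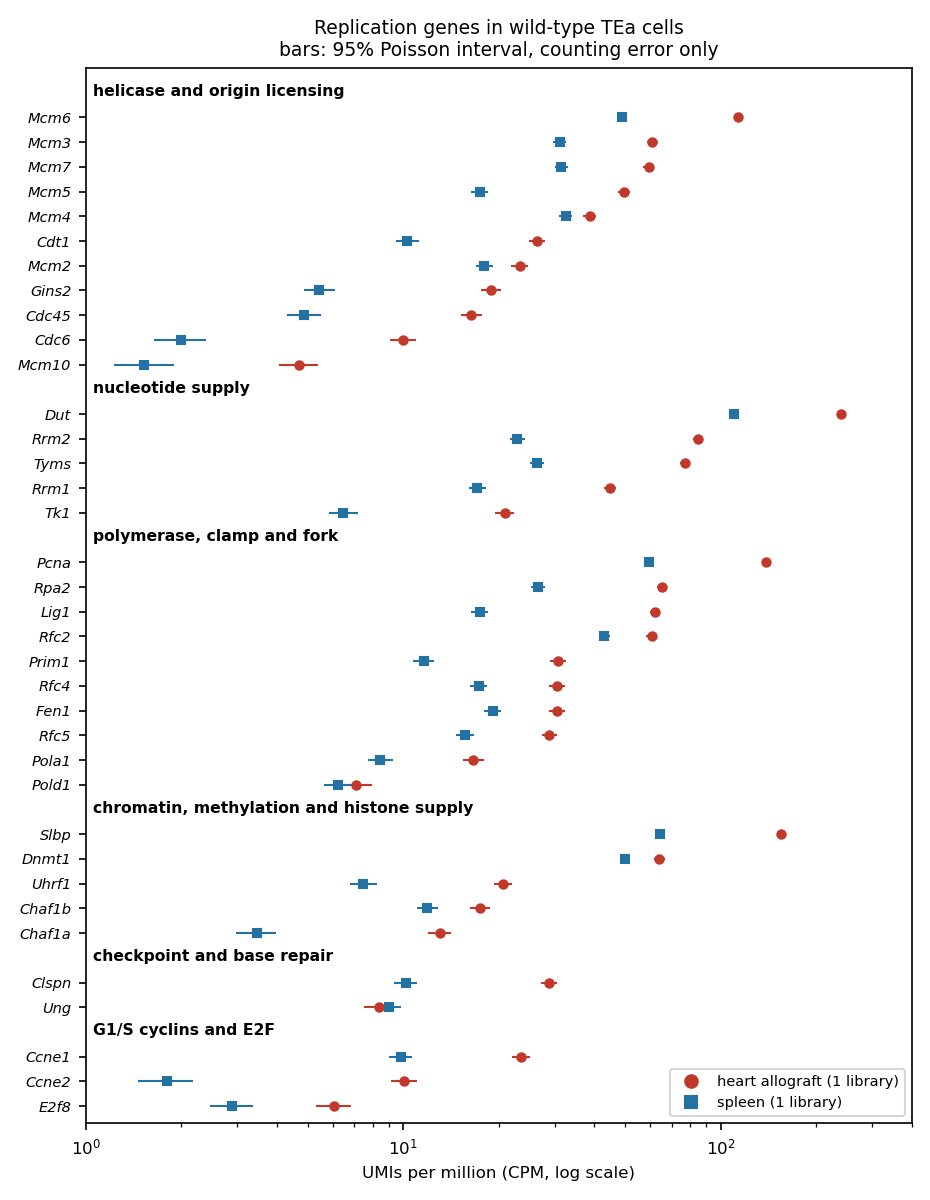
CPM (log axis) of the 36 replication genes in the heart allograft library (circles) and the spleen library (squares), grouped by role, with 95% Poisson intervals for counting error. Heart lies to the right of spleen for every gene except Ung, and the intervals of Pold1 and Ung overlap between the libraries.

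The helicase and licensing genes were all higher in heart, and by very different amounts. The licensing factor Cdc6 was at 10.0 CPM in heart and 1.99 (95% Poisson interval 1.64 to 2.40) in spleen, a ratio of 5.02 (interval 4.07 to 6.24). Cdt1, which loads the ring together with Cdc6, was at 26.4 and 10.3 CPM, though its gene overlaps Gm20388 on the same strand, so some of its reads may have been counted elsewhere. Mcm10, which helps to activate the loaded helicase, was at 4.69 and 1.53 CPM. These low genes were each more than 2-fold higher in heart. Cdc45 and Gins2, the partners that complete the active helicase, were at 16.4 against 4.87 and at 18.9 against 5.44 CPM.

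The 6 subunits of the Mcm2-7 ring work in equal numbers, and their transcripts did not differ equally. Mcm5 was at 49.6 CPM in heart and 17.4 in spleen, a log2 ratio of 1.46, and Mcm6 at 113 and 48.8, a log2 ratio of 1.20. Mcm3, at 60.9 and 31.1, and Mcm7, at 59.2 and 31.4, were just under 2-fold. Mcm2 was at 23.3 and 18.01 CPM and Mcm4 at 38.6 and 32.5, with log2 ratios of 0.35 and 0.24. Their ratio intervals, 1.18 to 1.41 and 1.11 to 1.27, stayed above 1. The direction of Mcm2 and Mcm4 turned where UMI-rich cells weighed less: thinned to 1000 UMIs per cell, their log2 ratios were -0.52 and -0.30.

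All 5 nucleotide supply genes were more than 2-fold higher in heart. Rrm2, the regulated subunit of ribonucleotide reductase, was at 84.6 CPM (81.8 to 87.4) in heart and 22.9 (21.6 to 24.1) in spleen, a ratio of 3.70 (3.47 to 3.95). Rrm1, its partner subunit, was at 44.8 and 17.1 CPM. Thymidylate synthase Tyms was at 76.9 and 26.4. The set thus held large differences both in the reductase and in the thymidine branch. Thymidine kinase Tk1 was at 20.8 and 6.47 CPM, and Dut, which removes dUTP and so keeps uracil out of DNA, at 240 and 110.

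Polymerase, clamp and fork genes were more mixed, with 4 of 10 past 2-fold. The ligase of Okazaki fragments, Lig1, was at 62.0 CPM in heart and 17.4 in spleen, a ratio of 3.57 (3.32 to 3.85) and the highest of the 10. Pcna, the sliding clamp, was at 139 (136 to 143) and 59.5 (57.5 to 61.6) CPM. Rpa2, a subunit of the single-strand binding complex, was at 65.2 and 26.5, and the primase subunit Prim1 at 30.7 and 11.6. The others were under 2-fold. The clamp loader subunits Rfc2, Rfc4 and Rfc5 had log2 ratios of 0.49, 0.79 and 0.84, from 60.5 against 42.9, 30.5 against 17.3 and 28.9 against 15.7 CPM. The polymerase alpha catalytic subunit Pola1 was at 16.6 and 8.46 CPM and the flap endonuclease Fen1 at 30.5 and 19.1. Pold1, the catalytic subunit of polymerase delta, was at 7.11 and 6.24 CPM with a ratio interval of 0.973 to 1.33, so no difference could be shown at this depth, and in thinned cells its log2 ratio was -0.70.

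Among the chromatin genes the pair Chaf1a and Chaf1b, subunits of the same histone chaperone, differed unequally. Chaf1a was at 13.0 CPM in heart and 3.45 in spleen (log2 ratio 1.66) and Chaf1b at 17.4 and 11.9 (0.51). Slbp, which binds the stem-loop of histone mRNA, was at 155 and 64.4 CPM. Uhrf1 and Dnmt1, which copy DNA methylation to the new strand, also differed unequally: Uhrf1 was at 20.6 and 7.49 CPM (1.35), Dnmt1 at 64.0 and 49.9 (0.35). The direction of 2 of these genes turned under alternatives: Dnmt1 was at -0.075 without UMI-rich cells and at -0.055 with mean per-cell CPM, and Chaf1b at -0.17 in thinned cells. Clspn, the adaptor of the replication checkpoint, was at 28.8 and 10.2 CPM. Ung, the uracil DNA glycosylase, was at 8.39 CPM (7.54 to 9.31) in heart and 9.03 (8.27 to 9.85) in spleen, and its ratio interval of 0.808 to 1.07 covered 1.

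The cyclins of S phase entry included the gene with the largest ratio. Ccne2 (ENSMUSG00000028212, chr4:11191351-11204779 in the mm10 annotation), a cyclin E that drives the kinase Cdk2, was at 10.1 CPM (9.14 to 11.1) in heart and 1.80 (1.46 to 2.18) in spleen, a ratio of 5.61 (4.50 to 7.04). Its paralogue Ccne1 was at 23.5 and 9.82 CPM. E2f8, an atypical E2F that represses other E2F targets late in S phase, was at 6.04 and 2.88 CPM, a log2 ratio of 0.86.

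Counted by cell, more heart cells carried replication transcripts. A UMI of Mcm5 or Rrm2, the pair used here to mark cells, was found in 853 of 3984 heart cells (21.4%, exact binomial interval 20.1 to 22.7) and in 696 of 6568 spleen cells (10.6%, 9.86 to 11.4). With each cell thinned to 1000 UMIs the shares were 6.25% (5.52 to 7.05) and 2.30% (1.95 to 2.69). The heart share was the higher before and after thinning. The spleen cluster of lowest replication level, led by Dapl1 and haemoglobin genes, had the pair in 211 of 2977 cells (7.09%, 6.19 to 8.07, median 7672 UMIs per cell) without thinning. Its cells are part of the spleen cells, and the level it was chosen by included Mcm5 and Rrm2. A spleen share above it was thus largely fixed in advance, and no conclusion is drawn from it. That cluster was chosen after its level was seen, and replication genes were among those that could shape the clusters.

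The genes differed in how far their thinned shares separated the libraries. Rrm2 had a UMI in 4.12% of thinned heart cells and 1.11% of thinned spleen cells. For Pcna the same shares were 10.0% and 5.10%, and for Mcm4 2.36% and 2.95%. The heart share was thus the higher for Rrm2 and Pcna and not for Mcm4. Thinned shares were higher in heart for 30 of the 36 genes, a count not made over all genes. They were not higher for the other 6 (Mcm2, Mcm4, Pold1, Fen1, Chaf1b and Ung). For 5 of the 6 the share went against the CPM of the whole libraries, so no order is read from it; the exception was Ung.

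Cells with many of the 36 genes at once were also more frequent in heart. In thinned cells, 47.6% of heart and 58.5% of spleen cells had none of the genes. At least 3 genes were seen in 10.9% and 3.73% of cells, and at least 5 in 4.79% and 1.31%. From 10 genes on the libraries could not be separated, with 7 heart and 9 spleen cells.

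**Figure D2:**
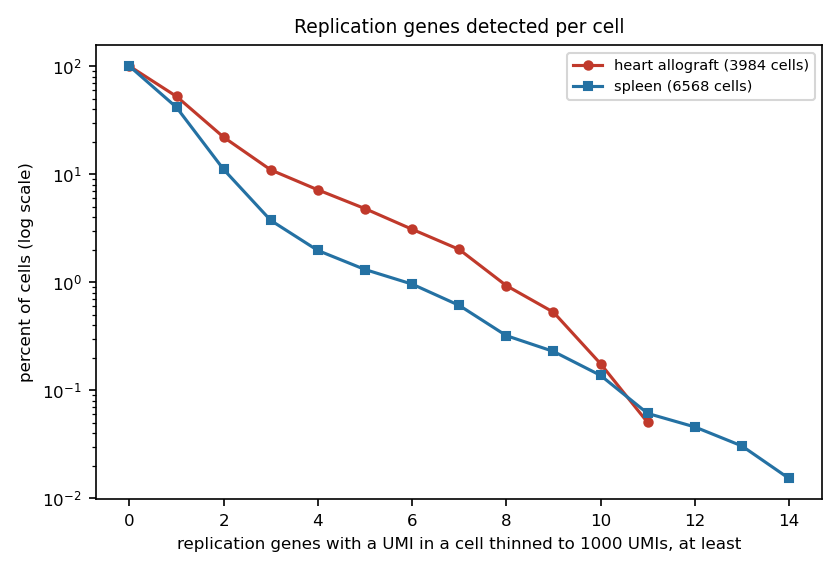
Percent of cells (log axis) in which at least the given number of the 36 replication genes had a UMI, after thinning every cell to 1000 UMIs, for heart (circles) and spleen (squares). The heart curve lies above the spleen curve from 1 to 10 genes, with 10.9% against 3.73% of cells at 3 genes.

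The Mcm5 or Rrm2 cells differed in how much they held of the other 34 genes. The classes below come from sparse counts of 2 genes and differ in depth, so they are not read as kinds of cell. Cells with UMIs of both genes numbered 380 in heart (9.54% of cells, median 22670.5 UMIs) and 139 in spleen (2.12%, median 16912), and they held the other 34 genes at 4341 CPM (4300 to 4383) and 4764 CPM (4680 to 4849), with a median of 27 and 25 of the 34 detected per cell. Cells with Mcm5 alone numbered 239 in heart and 436 in spleen, at 1507 and 949 CPM. Cells with Rrm2 alone numbered 234 and 121, at 1382 and 1046 CPM. Cells with neither held the 34 genes at 605 CPM in heart and 503 in spleen. In spleen the Mcm5-only cells, 62.6% of its Mcm5 or Rrm2 cells, had a median of 4 of the 34 genes per cell, against 3 in cells with neither. The make-up of the class thus differed between the libraries: cells with both genes were 44.5% of it in heart and 19.97% in spleen. They held 62.7% of the heart UMIs of the 34 genes and 29.5% of the spleen UMIs, from 22.7% and 4.59% of all UMIs.

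**Figure D3:**
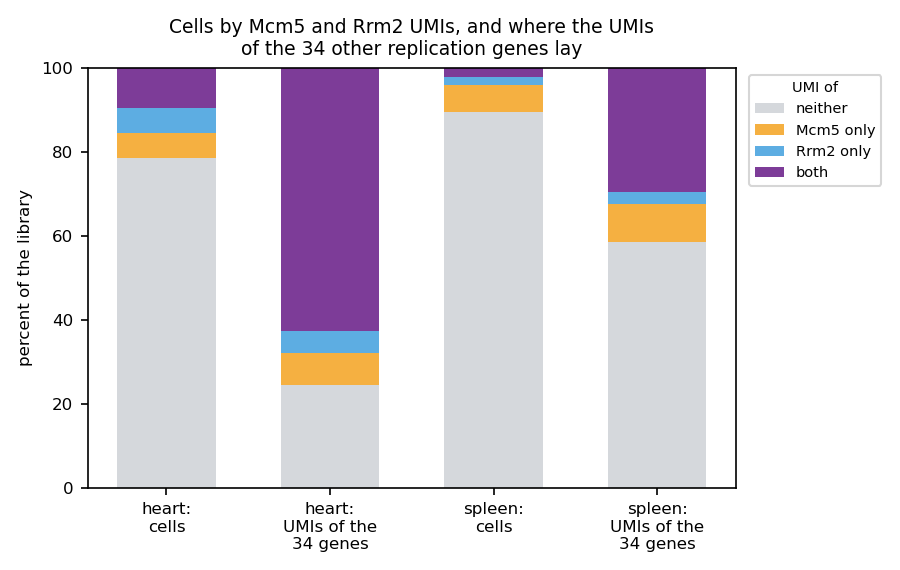
Percent of cells, and percent of the UMIs of the 34 replication genes other than Mcm5 and Rrm2, that lay in cells with UMIs of neither gene, of Mcm5 only, of Rrm2 only or of both, in each library. Cells with both make up 9.54% of heart and 2.12% of spleen cells and hold 62.7% and 29.5% of the UMIs of the 34 genes.

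Mcm5 or Rrm2 cells held every one of the other 34 genes at least 2-fold above the remaining cells of their library (7.57% of all genes in heart and 5.21% in spleen), and since the cells were chosen by 2 of the 36 genes this is given as a description. The median log2 ratio was 3.13 in heart and 2.13 in spleen. Share of UMIs showed which genes were most restricted to these cells. Of the UMIs of Mcm10 97.0% in heart and 94.2% in spleen lay in them, of Cdc6 96.7% and 92.0%, and of E2f8 96.5% and 98.8%. Slbp had 56.8% and 35.2%, Rpa2 57.4% and 28.1%, and Rfc2 67.4% and 24.8%. More of each gene's UMIs lay inside the class than outside it for all 34 genes in heart and for 14 in spleen. Cells outside the class held 63.4% of all heart UMIs and 86.3% of all spleen UMIs. These counts and shares are thus not compared between the libraries.

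Within Mcm5 or Rrm2 cells the heart excess was smaller. Of the 34 other genes, all of which were past the floor, 32 were higher in heart, against 41.4% of all genes, and 0 were past 2-fold in either direction, against 5.93% of all genes higher and 7.17% lower. The median log2 ratio was 0.52, and -0.11 over all genes in the same cells. The highest ratios were those of Ccne2 (21.9 against 10.9 CPM, log2 ratio 0.94), Cdc6 (26.4 against 13.3, 0.93), Rpa2 (102 against 54.3, 0.90) and Gins2 (47.0 against 25.4, 0.86). The lowest were E2f8 (15.9 against 20.7 CPM, -0.36), Ung (20.6 against 23.1, -0.15), Dnmt1 (131 against 126, 0.06) and Mcm4 (80.6 against 71.3, 0.18). This excess moved with the make-up of the class. With at least 2 UMIs over Mcm5 and Rrm2 required, the class was 12.6% of heart and 3.05% of spleen cells and the median log2 ratio was -0.14. With a Rrm2 UMI required it was 15.4% and 3.96% of cells, and the median -0.024.

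In cells with both Mcm5 and Rrm2 UMIs the replication genes were slightly lower in heart, by about as much as all genes. The median log2 ratio over the 34 was -0.20, and over all genes in these cells -0.18. In heart 8 genes were higher and 26 lower, where 34.7% of all genes were higher. The ratio interval lay above 1 for 3 genes, below 1 for 16 and covered 1 for 15, a count not made over all genes. E2f8 was the only gene past 2-fold, at 23.4 CPM in heart and 54.2 in spleen (log2 ratio -1.18), where 8.14% of all genes were at least 2-fold lower and 4.66% at least 2-fold higher. Those above 1 were Rpa2, at 128 and 93.3 CPM, Mcm6, at 251 and 224, and Pcna, at 331 and 304. Below 1 after E2f8 came Mcm10 at 17.9 and 27.1 CPM, Ung at 29.3 and 43.7, Clspn at 102 and 150, Uhrf1 at 69.8 and 101, Tk1 at 74.6 and 107, and Dnmt1 at 168 and 238. For several with large whole-library ratios the interval covered 1: Lig1 was at 192 in both, Cdc6 at 39.1 and 37.6, and Ccne2 at 32.2 and 30.6 CPM, with ratio intervals of 0.906 to 1.11, 0.830 to 1.31 and 0.819 to 1.37. Cells with both are chosen in part by their depth, and thinned to 1000 UMIs only 22 heart and 13 spleen cells remained, with a median of -0.75.

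Genes of G2 and mitosis were lower in heart by more than this. In cells with both UMIs all 15 mitosis genes were lower in heart, where 34.7% of all genes were higher. Of the 15, 8 were at least 2-fold lower (8.14% of all genes), and the median log2 ratio was -1.05. The ratio interval lay below 1 for 14 of 15, a count not made over all genes. Cenpf, a centromere protein of G2 and mitosis, was at 70.1 CPM in heart and 231 in spleen, Plk1, a mitotic kinase, at 20.8 and 67.7, and Mki67, a proliferation antigen, at 355 and 587. The 15 genes summed to 2114 CPM in heart and 3547 in spleen. The effector genes (Gzmb, Ccl5, Cxcr6 and others) summed to 1701 CPM in heart and 1639 in spleen in these cells. Their log2 ratios ran from -1.29 to 1.18, so the near-equal sums hide opposite differences. The 7 naive or stem-like genes summed to 322 CPM in heart and 1075 in spleen, and 6 of them were lower in heart. The part of these values in the ratios of the replication genes was not tested.

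In cells without a Mcm5 or Rrm2 UMI the replication genes split. Of the 34 genes, without a floor, 20 were higher in heart and 14 lower, with a median log2 ratio of 0.24. The ratio interval lay above 1 for 17 and below 1 for 13, a count not made over all genes. Past the floor 10 were higher and 9 lower, with a median of 0.13. Of all genes past it 39.9% were higher, and their median was -0.15. The 19 past the floor included 2 that were at least 2-fold higher in heart (8.95% of all genes) and 1 that was at least 2-fold lower (10.4%). Cdt1 was at 18.7 CPM in heart and 7.85 in spleen, and Slbp at 105 and 48.3. Lig1, at 15.2 and 7.17, Rpa2, at 43.9 and 22.1, Mcm6, at 66.3 and 36.9, and Pcna, at 74.2 and 45.2, were also higher in heart. On the other side Mcm2 was at 5.53 CPM in heart and 13.5 in spleen, and its ring partners Mcm4, at 14.3 and 26.3, Mcm3, at 12.6 and 20.2, and Mcm7, at 15.3 and 20.6, were lower too, while Mcm6 was not. Ung was at 1.31 and 6.80 CPM, Pold1 at 1.46 and 5.07, and Fen1 at 6.77 and 13.1. Ung and Pold1 were thus lower in heart in these cells, while in the whole libraries their ratio intervals covered 1. The cells were picked by the absence of 2 replication genes, and this took out more of the heart library. They held 63.4% of all heart UMIs and 86.3% of all spleen UMIs. Of the UMIs of the 34 genes they held 24.4% in heart and 58.5% in spleen. The split and the lower heart values may thus be set in part by that choice, and no conclusion is drawn from them.

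**Figure D4:**
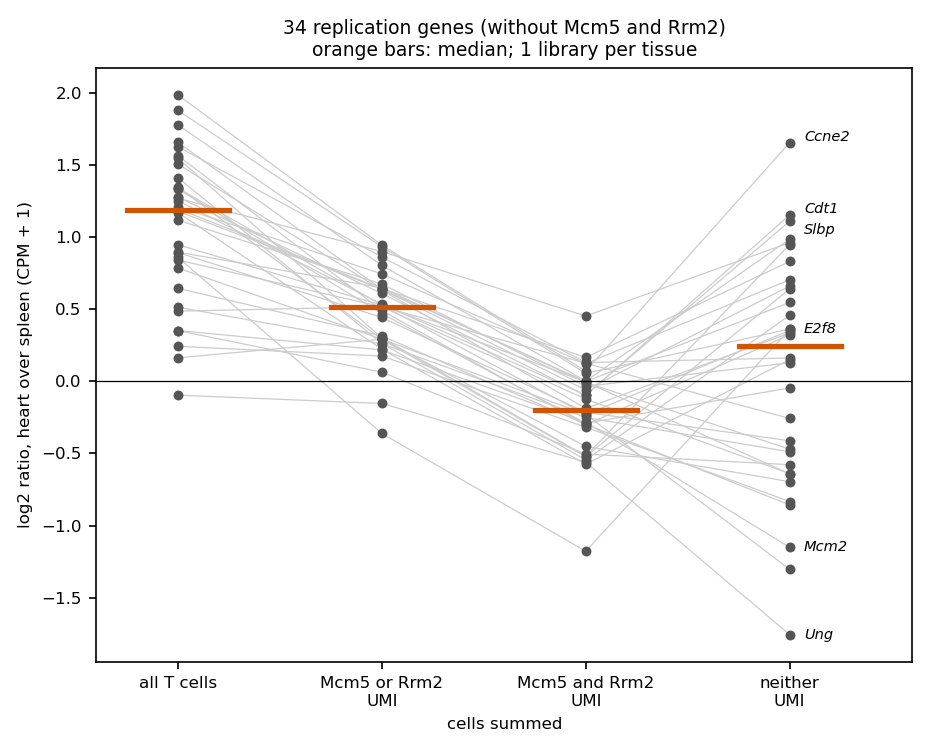
Log2 ratio of heart over spleen CPM for the 34 replication genes other than Mcm5 and Rrm2 in all T cells, in cells with a UMI of either, of both and of neither; grey lines join the same gene and orange bars are medians. The median goes from 1.19 in all cells to 0.52 and -0.20, and is 0.24 with a wide spread in cells with neither.

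Cells with a UMI of Mcm5 alone and of Rrm2 alone differed in which other genes they held. Of the 34 genes 7 were higher in Mcm5-only cells in both libraries, 16 were lower in both and 11 had opposite signs. The same split was not counted over all genes, so these counts are not read as particular to the replication genes. Mcm5-only and Rrm2-only cells had medians of 13060 and 8627 UMIs in heart, and of 8493.5 and 8468 in spleen. Among the 7 were Ung, with log2 ratios of Mcm5-only over Rrm2-only cells of 1.09 in heart and 1.86 in spleen, Mcm2 (0.76 and 1.41) and Mcm4 (0.62 and 0.59). The other 4 were Chaf1b, Lig1, Mcm3 and Mcm6, so Mcm5-only cells held more of 4 further ring subunits. Among the 16 were E2f8 (-2.16 and -2.90), Mcm10 (-1.30 and -1.46), Clspn (-0.75 and -1.59) and Tyms (-0.57 and -1.60). The libraries differed most in Tk1, with 17.96 against 17.3 CPM in heart and 3.01 against 35.7 in spleen. The mitosis genes followed Rrm2: they summed to 532 CPM in Mcm5-only and 1298 in Rrm2-only heart cells, and to 124 and 1650 CPM in spleen cells. Since the classes come from 2 of the 36 genes in sparse counts, these differences are a description.

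**Figure D5:**
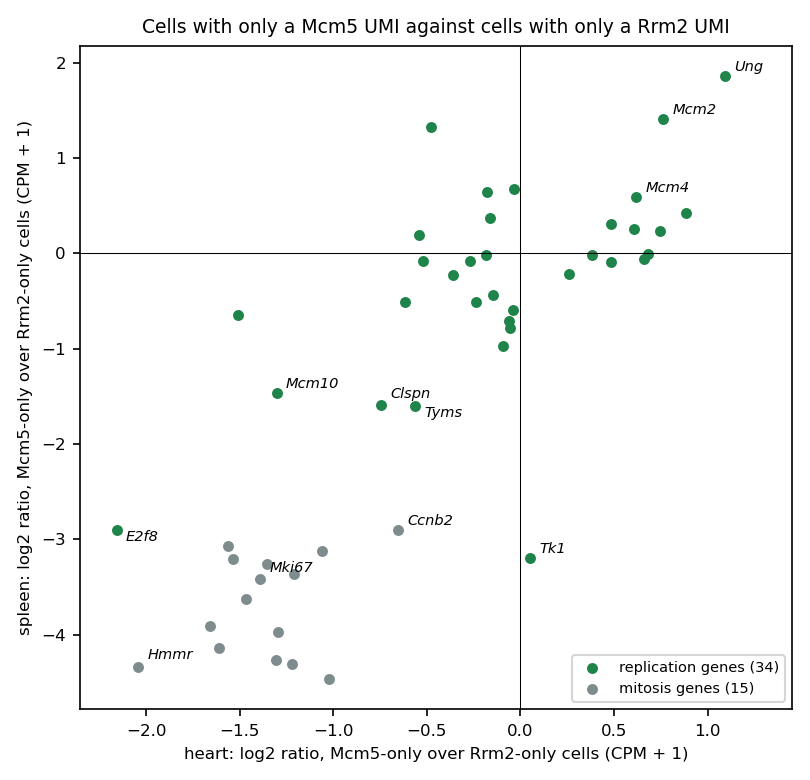
Log2 ratio of CPM in Mcm5-only over Rrm2-only cells, in heart (horizontal) and in spleen (vertical), for 34 replication genes and 15 mitosis genes. No floor was applied. All 15 mitosis genes and E2f8 lie at the lower left, Ung, Mcm2 and Mcm4 at the upper right, and Tk1 is near 0 in heart and at -3.19 in spleen.

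Most replication transcripts of the graft lay in 1 cluster of cells. Cells of both libraries were clustered together, and the cluster led by Ccna2, Birc5 and replication-dependent histone genes held 588 heart and 141 spleen cells. Its cells had medians of 19544 UMIs in heart and 16311 in spleen, above those of the other T cell clusters. Its heart cells held the 36 genes at 4101 CPM and 72.6% of the heart UMIs of these genes, and its spleen cells held them at 5161 CPM and 30.3%. In the other T cell clusters the genes summed to between 499 and 779 CPM. The lowest was a spleen cluster led by Dapl1 and haemoglobin genes, at 499 CPM, and the highest a spleen cluster led by Ccl5 and Klra genes, at 779. The heart clusters led by Itgae and Cxcr6 and by Hspa1a and Hspa1b were at 684 and 627 CPM. Since cell cycle genes shaped the clusters, their sizes are not compared between the libraries.

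Other genes of the pathway were less uniform than the 36. Of 77 genes of origin firing, the fork, nucleotide supply, chromatin and the G1/S switch, 57 were past the floor, 13 of them at least 2-fold higher in heart and 2 at least 2-fold lower, with a median log2 ratio of 0.11. Over all genes past the floor 9.08% were at least 2-fold higher and 8.5% lower, and the lists below are read against these shares. With the mitosis genes the higher count was 21 of 70, and it was 12 with the other scaling totals, 10 at a floor of 50 CPM, 8 without UMI-rich cells and 4 without the cell cycle cluster. Among 9 origin genes 3 were at least 2-fold higher and 0 lower. These included Gmnn, the inhibitor of Cdt1, at 85.8 CPM in heart and 31.3 in spleen, and Dbf4, the activator of the Cdc7 kinase, at 78.0 and 34.6. The origin recognition subunits Orc3 (11.9 and 17.7) and Orc2 (12.2 and 16.1) were lower in heart. Among 15 fork genes 1 was at least 2-fold higher, a smaller share than over all genes. It was the clamp loader subunit Rfc3, at 31.9 and 13.5 CPM. The primase subunit Prim2 was at 11.9 and 6.24, Rfc1 at 33.9 and 50.6, and Rpa1 at 47.3 and 59.6. Complexes were thus not uniform: Rfc3, Rfc4 and Rfc5 were higher in heart and Rfc1 lower, and Rpa2 was higher and Rpa1 lower.

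Among the other nucleotide genes the dCTP pyrophosphatase Dctpp1 was at 91.4 CPM in heart and 40.5 in spleen. Rrm2b, the p53-induced counterpart of Rrm2, was at 10.4 CPM in heart and 21.3 in spleen, opposite to Rrm2, and Nme1 was at 262 and 315. Among 9 chromatin genes 3 were at least 2-fold higher, including the histone chaperone Nasp at 148 and 67.1 CPM and the remodeller Hells at 41.6 and 18.9. The FACT subunits Supt16 (91.9 and 117) and Ssrp1 (66.7 and 68.3) were not.

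The regulators of the G1/S switch held the largest difference of the pathway. Of 17 past the floor 4 were at least 2-fold higher in heart and 2 at least 2-fold lower. Cdkn1a, the inhibitor p21, was at 67.6 CPM in heart and 1.14 in spleen, a log2 ratio of 5.003, and it was present in heart cells with both Mcm5 and Rrm2 UMIs as well, at 88.0 CPM against 10.8 in spleen. Cdkn1b, the inhibitor p27, was at 167 and 93.1, Cdk6 at 53.5 and 16.7, and E2f1 at 11.3 and 5.07. The D cyclins went the other way, with Ccnd2 at 133 CPM in heart and 306 in spleen and Ccnd3 at 83.5 and 197. Of 13 mitosis genes past the floor 8 were at least 2-fold higher in heart and 0 lower, with a median of 1.09. Ccnb2 was at 62.9 and 15.4 CPM, Birc5 at 142 and 41.2, Mki67 at 109 and 40.8 and Top2a at 137 and 55.6, while Cenpf (26.3 and 16.5) and Cdc20 (16.2 and 11.5) were under 2-fold.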

How the data were processed

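Single-cell 3' RNA libraries of sorted wild-type TEa cells were analysed, 1 from heart allograft and 1 from spleen, at day 7. The deposited matrices hold UMI counts per gene and barcode, not normalised, made with Cell Ranger 3.0.2 per the file headers. Per the submitters' processing notes the build was mm10, with Seurat 4.0.0 and Cell Ranger 7.0.0 as tools. The protocol text speaks of nuclei as well as cells. Barcodes needed 1000 UMIs and 500 genes, with mitochondrial UMIs no higher than 10% (4074 heart, 6583 spleen barcodes). Cells were clustered (scanpy 1.11.5, 2000 variable genes, 30 components, 15 neighbours, leidenalg 0.10.2, resolution 0.6), and 1 cluster of other cell types was removed (88 heart and 15 spleen cells). The removal rule as first written also took a spleen T cell cluster that had haemoglobin genes among its leading genes. The 4 haemoglobin genes were therefore not counted, a choice made after seeing the data. Scrublet at an expected rate of 0.06 marked 2 heart and 0 spleen cells. The 2 were removed, but at so few marked cells the caller is taken not to have worked, and doublets may remain. Counts were summed over cells and scaled to CPM, with a pseudocount of 1 CPM and a floor of 10 CPM in either library. Intervals at 95% are exact Poisson (levels), Clopper-Pearson (shares) and conditional binomial (ratios), with scipy 1.17.1 and numpy 2.4.6. They cover counting error only, and PCR or capture effects are not in them. A count of 0 allows up to 3 UMIs, which is 0.0711 CPM in heart and 0.0533 in spleen. With 1 library per tissue no p-value was computed. Counts were simulated as independent Poisson draws for the heart over spleen comparison over 6561 genes. All 4-fold changes (100%) and 0 unchanged genes were called, and 94.8% of ratio intervals held the true value. The intervals assume such draws, so this coverage was largely fixed in advance and does not bear on the spread between cells or libraries. All 36 genes were named. The named pathway genes were the 2 highest and 2 lowest of each list past the floor, with Mki67, Top2a, Cdkn1a, Cdkn1b and E2f1; Plk1 and the genes named in cells with both or neither UMI were chosen after their values were seen. Some named items are not reported here. Promoter sequences are from RefSeq. The members and lists were chosen with earlier results of these data known. Alternatives changed the scaling total, pseudocount, floor, cell filters, cell weights and the definition of the marked cells.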

Additional observations from a re-analysis of the deposited data

How the results depend on the processing

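Under alternatives to the main settings, the count of replication genes at least 2-fold higher in heart (20 past the floor) stayed within 1.5 times except as given here, and the count at least 2-fold lower stayed at 0 except without the cycling cluster. A floor of 50 CPM gave 8, with a median of 1.20, and no floor also gave a median of 1.20. Leaving mitochondrial, ribosomal protein and Malat1 counts out of the totals gave a median of 1.07, a pseudocount of 5 CPM 1.09, at most 5% mitochondrial UMIs 1.10, and leaving out cells with an Hspa1a or Hspa1b UMI 1.20. Heart-higher calls were 51.6% of all calls in the main setting, 33.5% with those totals, 60.1% at a pseudocount of 5 CPM and 70.6% at a floor of 50 CPM. Without UMI-rich cells, those past 3 times their library's median, the count was 9 and the median 0.83, with thinned cells 10 and 0.84, with mean per-cell CPM 10 and 0.90. The pathway count (21) was 12 with the other totals, 13 at a pseudocount of 5 CPM, 10 at a floor of 50 CPM, 13 at 5% mitochondrial UMIs, 8 without UMI-rich cells and 13 with mean per-cell CPM.

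The share of cells with a Mcm5 or Rrm2 UMI was 6.25% in heart and 2.30% in spleen in thinned cells. It was 12.6% and 3.05% with at least 2 UMIs over the pair. With a Mcm5 UMI required, whether or not Rrm2 was seen, it was 15.5% and 8.75%. With a Rrm2 UMI required, whether or not Mcm5 was seen, it was 15.4% and 3.96%. UMIs of at least 3 of the other 34 genes were in 77.5% and 69.4% of cells, a definition that most cells met. The heart share was 17.6% without UMI-rich cells, and the spleen share 11.8% at 5% mitochondrial UMIs. The median within these cells was 0.34 at 5% mitochondrial UMIs, 0.36 without UMI-rich cells, 0.27 in thinned cells and 0.66 with mean per-cell CPM. It was -0.14 with at least 2 UMIs, -0.024 with a Rrm2 UMI required and 1.07 with at least 3 other genes. In cells with both UMIs it was -0.75 in thinned cells.

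Of 432 planned gene values 216 moved by less than the counting interval, 204 moved by more with the same sign and 12 changed sign, in 5 genes. Without UMI-rich cells Mcm2 was at -0.24, Mcm4 at -0.19, Pold1 at -0.25 and Dnmt1 at -0.075. In thinned cells Mcm2 was at -0.52, Mcm4 at -0.30, Pold1 at -0.70 and Chaf1b at -0.17. With mean per-cell CPM Mcm2 was at -0.24, Mcm4 at -0.24, Pold1 at -0.36 and Dnmt1 at -0.055.

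Both of the following were added after seeing the data. Cluster removal as first written, which took the spleen cluster led by Dapl1 and haemoglobin genes, gave a count of 9, a median of 0.87, a spleen share of 13.5%, a median of 0.23 in Mcm5 or Rrm2 cells and a pathway count of 6. Without the cluster led by cell cycle genes the count was 2 higher and 1 lower, the median -0.033, the shares 10.6% in heart and 8.88% in spleen, the medians -0.21 in Mcm5 or Rrm2 cells and -0.73 in cells with both, and the pathway count 4. There Mcm2 was at -1.14, Mcm3 at -0.59, Mcm4 at -0.75, Mcm5 at -0.28, Mcm7 at -0.50, Mcm10 at -0.069, Cdc45 at -0.14, Rfc2 at -0.23, Rfc4 at -0.80, Rfc5 at -0.69, Prim1 at -0.030, Pola1 at -0.38, Pold1 at -1.24, Fen1 at -0.83, Dnmt1 at -0.57 and Chaf1b at -0.40. Since cell cycle genes shaped the removed cluster, a smaller heart excess without it was largely fixed in advance. These results rest on 1 library per tissue. The cause of these shifts was not tested.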
